A study of Mus musculus with 16 samples.

Results

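The genes described here, Icam1, Vcam1, Sele, Selp, Il1b, Tnf, Il6, Ptgs2, Lcn2 and Saa3, are markers of leukocyte adhesion and acute inflammation, measured in mouse retina by 2-colour Agilent arrays. They were chosen by gene name in the scanner files, which gave 20 probes for the 10 genes, of 43426 probes and 18950 named genes on the array. All 20 carried the current symbol, and the accessions in the files gave no further probe for them. A probe was tested when its Cy3 signal was well above background on at least 3 arrays, and 18 of the 20 probes, for 9 of the 10 genes, met this.

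All mice were C57Bl6. The groups were Dll4-Fc (n = 4), VEGF-A (n = 5), VEGF Trap (n = 3) and hFc alone (n = 4). Pups received 4 µg Dll4-Fc, 1 µg VEGF-A or 4 µg hFc into the vitreous at 8 days of age, and retinas were taken 24 h later. The protocol names no dose or age for VEGF Trap, and the mass of VEGF-A differed from that of Dll4-Fc and hFc. Each array set 1 retina sample, labelled with Cy3, against Cy5-labelled RNA pooled in equal amounts from the experiment. Nothing in the labels states that each sample is a different animal. The p-values then measure only the spread between these samples, which may be technical.

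VEGF-A drives growth and permeability of endothelium, VEGF Trap is a soluble decoy receptor for it, and Dll4-Fc is a soluble form of the Notch ligand Dll4. Leukocytes leave the blood by rolling on the selectins, which the genes Sele and Selp encode, and then by firm adhesion of their integrins to ICAM-1 and VCAM-1 on endothelium. TNF and IL-1β are the classical inducers of these adhesion molecules, IL-6 passes the signal on through STAT3, Ptgs2 encodes the inducible cyclooxygenase of prostaglandin synthesis, and Lcn2 and Saa3 encode secreted proteins of the acute phase response. In retina Vcam1 and Icam1 are not limited to endothelium, since glia can express them.

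The file headers give 1 scan batch for all arrays. All Dll4-Fc arrays lay on 1 slide and all hFc arrays on another, and no other group shared these slides. In every comparison with Dll4-Fc or hFc, slide and treatment therefore cannot be told apart. Slide as a random block, an alternative used below (slide correlation −0.022), does not change that. VEGF-A 1 and 2 lay on slide 3 with VEGF Trap 1 and 2, and VEGF-A 3, 4 and 5 on slide 4 with VEGF Trap 3. Between 84.9% and 91% of spots per array were well above background in Cy3, and 0 member spots were saturated. The scanner software marked 12 to 213 outlier spots on each Dll4-Fc, VEGF-A and VEGF Trap array and 2350 to 2599 on each hFc array, where 129 rows formed a band of such marks. No member spot was itself marked, but 9 member probes lay in that band, namely both of Icam1, both of Ptgs2, 2 of Vcam1, 2 of Tnf and 1 of Selp. The defining retina markers were detected, and 0 of 7 passed the test in any comparison with hFc. Lens markers varied between arrays within every group, from −3.44 to 1.93 in mean log2 of sample over reference, and 0 of 5 passed the test, though their median difference from hFc was 1.16 in Dll4-Fc, −0.43 in VEGF-A and 2.52 in VEGF Trap.

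Several results turn on how the probes of 1 gene relate to each other, so those probe sequences are given as the scanner files hold them, 5′ to 3′, whole for Lcn2 and Saa3 and the first 30 of 60 bases for Tnf and Vcam1. For Tnf (chromosome 17), A_51_P385099 and A_66_P132940 hold the same 60 bases, in capitals, and are repeat measurements of 1 target, while A_66_P122938 shares no stretch of 20 bases with them. For Lcn2 (chromosome 2), the capitals mark 40 bases that both probes share. For Vcam1 (chromosome 3) and Saa3 (chromosome 7), the probes shown are the Vcam1 probes with the highest and the lowest Cy3 signal and the only Saa3 probe.
A_51_P385099: TGGGCTTTCCGAATTCACTGGAGCCTCGAA
A_66_P132940: TGGGCTTTCCGAATTCACTGGAGCCTCGAA
A_66_P122938: aacctctgctccccacgggagccgtgactg
A_51_P510152: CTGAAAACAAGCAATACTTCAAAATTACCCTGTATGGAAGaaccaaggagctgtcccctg
A_51_P510156: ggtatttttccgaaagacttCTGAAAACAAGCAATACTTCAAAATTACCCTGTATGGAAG
A_51_P210956: tatatttttataggcaaatggtaaagaggt
A_52_P462332: ggggaacaatgaatcaagatactagtgatt
A_51_P337308: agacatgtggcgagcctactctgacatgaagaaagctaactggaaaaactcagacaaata
The files annotate the Saa3 probe with an accession of Saa1 besides that of Saa3, so its signal may include Saa1 transcripts.

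In a limma fit of 16 arrays over all 39787 tested probes, 11 of the 18 tested member probes differed between the 4 groups (moderated F test, Benjamini-Hochberg adjusted p under 0.05), where 19.3% of all probes did. They belonged to Icam1, Vcam1, Tnf, Il6, Lcn2 and Saa3. Values below are log2 of sample over reference, so 0 means the level of the pooled RNA, and a difference between groups is given as log2 with its standard error (SE) from the fit.

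**Figure D1:**
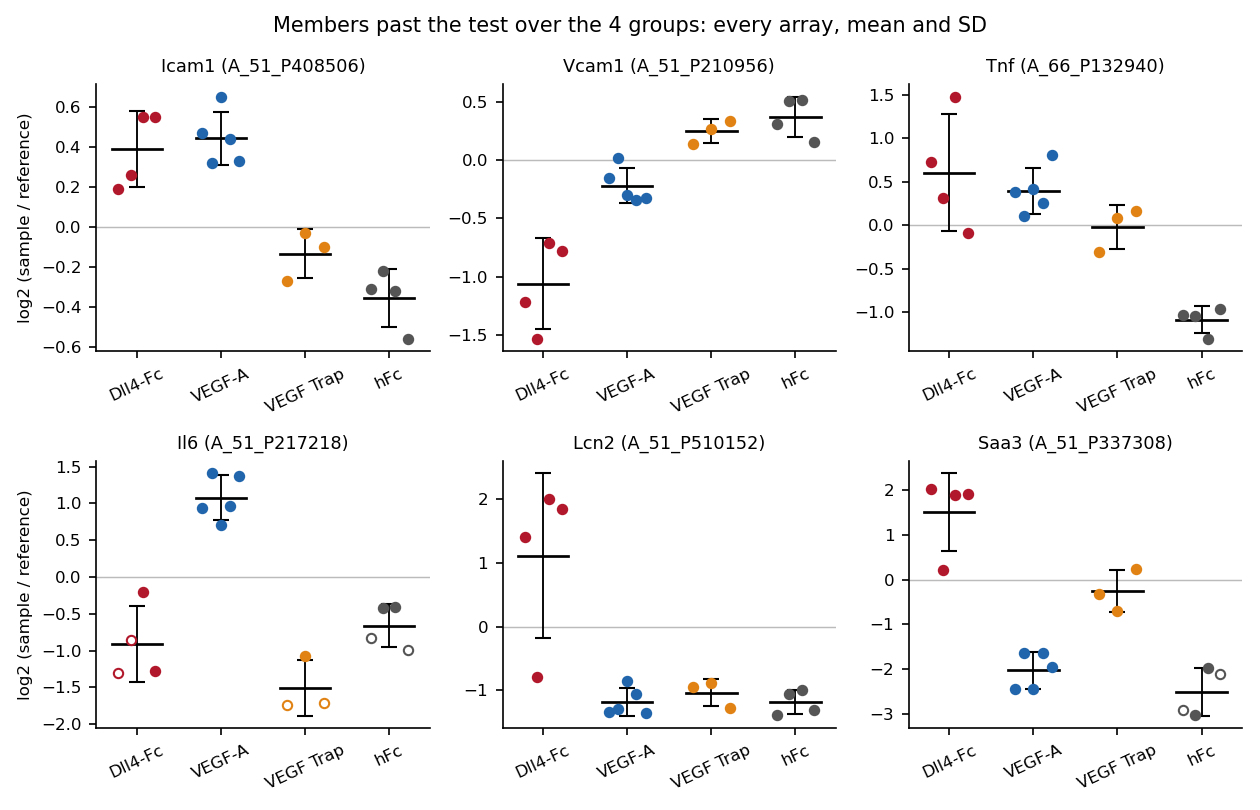
Log2 of sample over reference on each array (points, hollow where Cy3 was not well above background) for 1 probe each of the 6 members that differed between the groups, with the group mean and SD (bars). Icam1 and Tnf were higher in Dll4-Fc and VEGF-A than in hFc, Vcam1 was lower in both, Il6 stood highest in VEGF-A, and Lcn2 and Saa3 stood highest in Dll4-Fc.

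The Cy3 signal limited what could be measured. The Cy3 signal of A_51_P210956 for Vcam1 ran from 1090 to 6110 over the 16 arrays and that of A_51_P510152 for Lcn2 from 395 to 5630, whereas Sele, with 1 probe, stayed between 1.84 and 6.99. Sele was near background in Dll4-Fc, VEGF Trap and hFc, where no array was well above it, and 1 of 5 VEGF-A arrays was. Ptgs2 A_51_P254855 was also well above background on 1 of 16 arrays, of VEGF-A, and neither probe was tested. Ptgs2 A_52_P224760 was above background on 3 of 5 VEGF-A arrays, 1 of 3 VEGF Trap arrays, and on no Dll4-Fc or hFc array. On several dim spots the scanner software replaced the signal of a channel by a surrogate value, and the log ratio is exactly 0 where both were replaced.

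**Figure D2:**
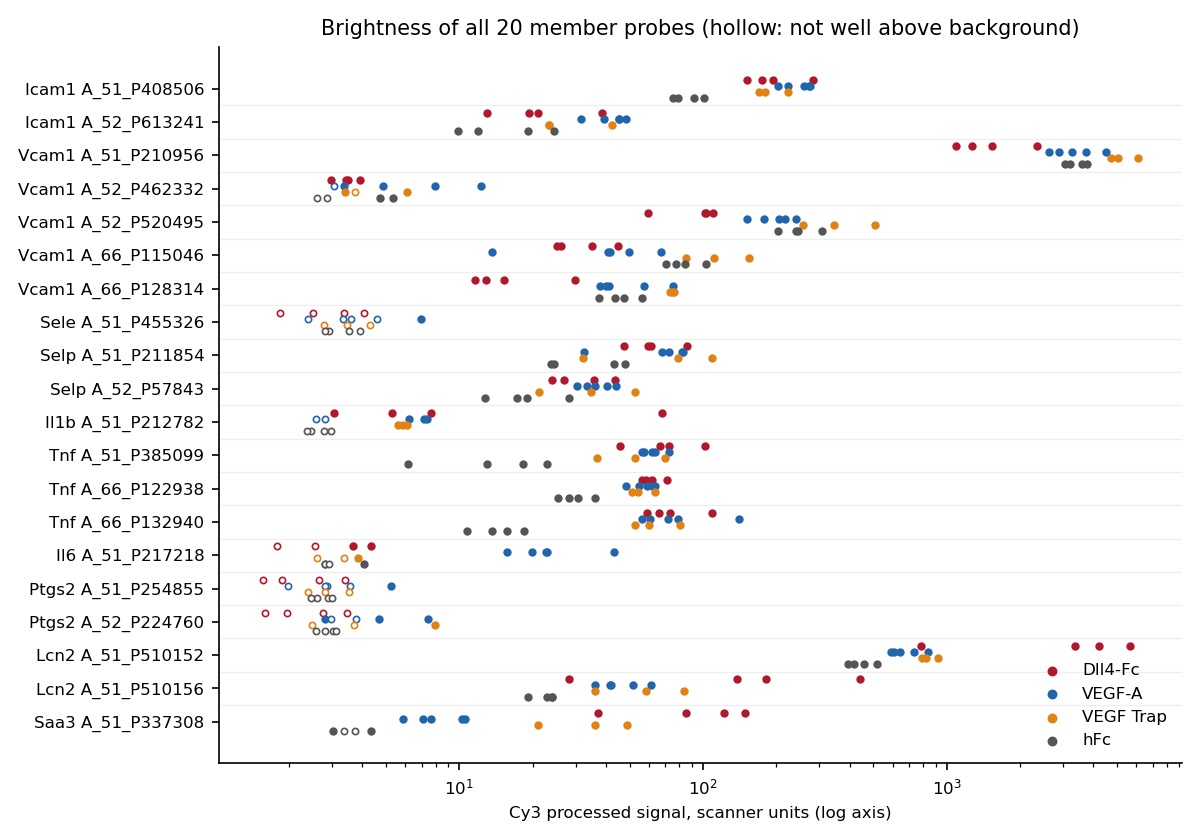
Cy3 processed signal in scanner units (log axis) of each of the 20 member probes on every array, coloured by group, hollow where the signal was not well above background. Sele and Ptgs2 lie at the left edge with mostly hollow points, while the brightest probes of Vcam1 and Lcn2 reach 6110 and 5630.

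With Dll4-Fc, 6 of 18 tested probes rose against hFc (Icam1, Tnf, Lcn2 and Saa3) and 4 fell, all of Vcam1, where 4.02% of all probes passed the test, 2.65% up and 1.37% down. With VEGF-A, 4 of 18 rose (Icam1, Tnf and Il6) and 3 fell, again of Vcam1, where 8.99% of all probes passed, 5.68% up and 3.3% down. With VEGF Trap, 1 of 18 rose, that of Saa3, and 0 fell, where 2.69% of all probes passed, 0.903% up and 1.79% down. The arrays did not overlap with those of hFc for 10 of 18 member probes in Dll4-Fc (11% of all probes), for 9 in VEGF-A (14.9%) and for 4 in VEGF Trap (23.7%). Probes of a gene share their target and the 3 comparisons share the hFc arrays, so these counts are not independent. The median log2 difference of the 18 probes was 0.38 for Dll4-Fc, 0.21 for VEGF-A and 0.10 for VEGF Trap, beside −0.025, −0.044 and −0.017 over all probes.

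**Figure D3:**
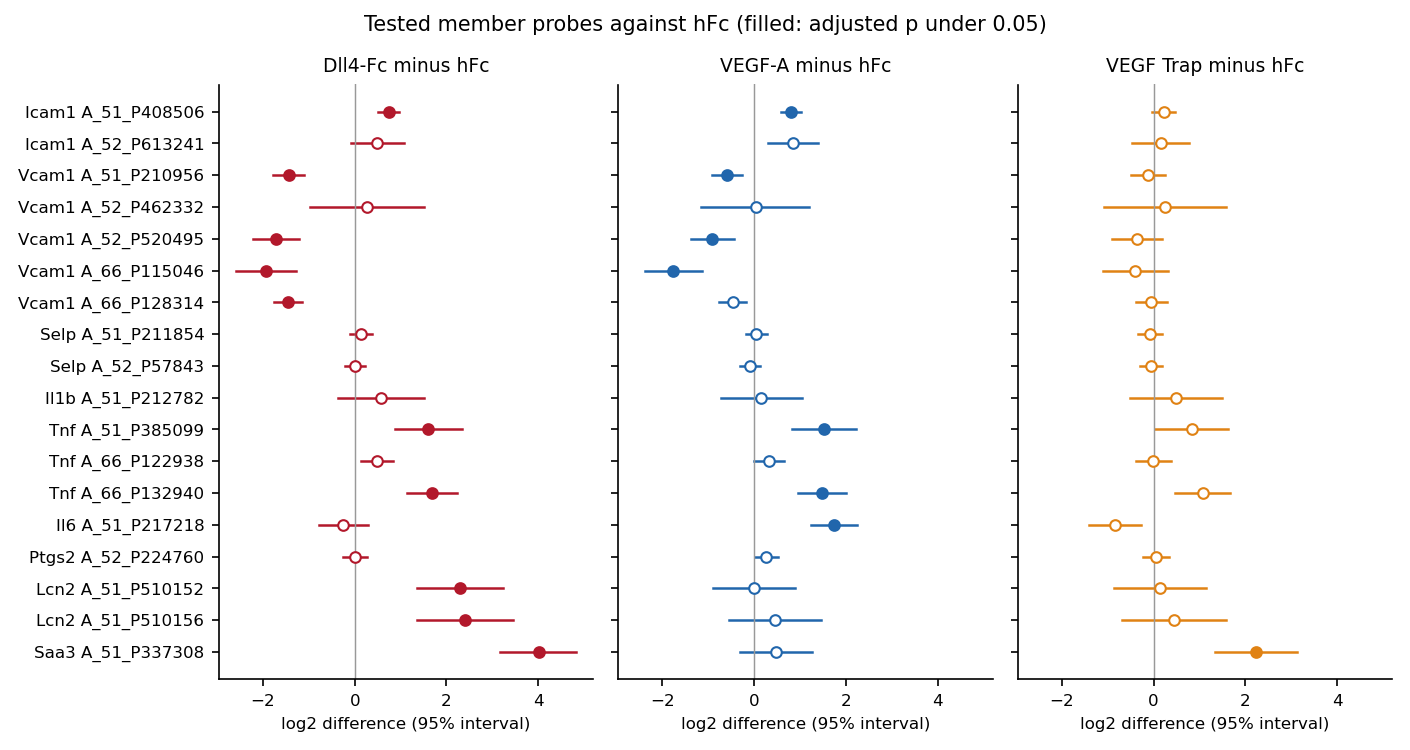
Log2 difference from hFc with its 95% interval for the 18 tested member probes in Dll4-Fc, VEGF-A and VEGF Trap, filled where the adjusted p was under 0.05. Vcam1 probes lie left of 0 in Dll4-Fc apart from A_52_P462332, and the widest rises are those of Lcn2 and Saa3 in Dll4-Fc, at 2.3, 2.41 and 4.01.

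Icam1, which encodes the endothelial ligand of leukocyte β2 integrins, rose after both Dll4-Fc and VEGF-A. On its brighter probe, A_51_P408506, log2 of sample over reference was 0.19, 0.26, 0.55 and 0.55 in Dll4-Fc, 0.47, 0.32, 0.65, 0.44 and 0.33 in VEGF-A, −0.27, −0.03 and −0.10 in VEGF Trap, and −0.31, −0.22, −0.32 and −0.56 in hFc. Every Dll4-Fc and VEGF-A array was above every hFc and VEGF Trap array. The rise over hFc was 1.67-fold with Dll4-Fc (log2 0.74, SE 0.11, limma adjusted p = 0.00055) and 1.74-fold with VEGF-A (0.80, SE 0.10, adjusted p = 7.65e-05). Dll4-Fc minus VEGF-A was −0.06, with a 95% interval from −0.27 to 0.16. VEGF-A was also above VEGF Trap (0.58, SE 0.11, adjusted p = 0.00239), with 0.54 within slide 3 and 0.58 within slide 4, neither past the threshold alone (adjusted p = 0.0587 and 0.0963). VEGF Trap minus hFc was 0.22 (95% interval −0.03 to 0.47), which did not pass. The dimmer Icam1 probe, A_52_P613241, gave 0.49 for Dll4-Fc (adjusted p = 0.522) and 0.85 for VEGF-A (adjusted p = 0.0558), with every VEGF-A array above every hFc array. The VEGF-A value passed in 4 alternatives (adjusted p = 0.00961 to 0.0445), among them normexp (0.48). With slide as a fixed block VEGF-A was above VEGF Trap on it too (0.68, adjusted p = 0.0466). Both Icam1 probes lie in the band of rows noted above, and had no value with those rows left out.

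Vcam1, which encodes the ligand of α4β1 integrin, moved the other way. On the brightest probe, A_51_P210956, the values were −1.22, −1.54, −0.71 and −0.78 in Dll4-Fc, −0.15, 0.02, −0.30, −0.34 and −0.32 in VEGF-A, 0.14, 0.27 and 0.34 in VEGF Trap, and 0.31, 0.51, 0.52 and 0.16 in hFc. Dll4-Fc lay below VEGF-A, and VEGF-A below VEGF Trap and hFc, with no overlap between them, while VEGF Trap and hFc overlapped. The fall was 2.71-fold with Dll4-Fc (log2 −1.44, SE 0.16, adjusted p = 4.81e-05) and 1.5-fold with VEGF-A (−0.59, SE 0.15, adjusted p = 0.0231). Dll4-Fc was below VEGF-A by −0.85 (SE 0.15, adjusted p = 0.00116).

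Of the other Vcam1 probes, 3 fell in Dll4-Fc as well, by −1.72 on A_52_P520495, −1.94 on A_66_P115046 and −1.46 on A_66_P128314 (adjusted p = 0.000289, 0.00114 and 1.77e-05). In VEGF-A the same probes gave −0.91, −1.76 and −0.46 (adjusted p = 0.0164, 0.000841 and 0.0505), so that A_66_P128314 missed the threshold in the main fit, and passed it in 7 alternatives (−0.55 to −0.34, adjusted p = 0.00413 to 0.0497), among them normexp, the series matrix and slide as a random block. The random block cannot separate slide from treatment in a comparison with hFc. Under normexp background correction with an offset of 50, which compresses dim probes, the Dll4-Fc falls on A_66_P115046 and A_66_P128314 were −1.20 and −0.72, and the VEGF-A fall on A_66_P115046 was −1.01, which passed the threshold, while the VEGF-A fall on A_51_P210956 was −0.44 and did not (adjusted p = 0.0871). The VEGF-A fall on A_51_P210956 lost its call in 7 settings in all: normexp, Cy3 alone (−0.57, adjusted p = 0.059), hFc 1 and hFc 2 averaged (−0.58, 0.0559), the VEGF-A arrays of slide 3 alone (−0.44, 0.218), and without hFc 2 (−0.54, 0.075), hFc 3 (−0.54, 0.0759) or VEGF-A 4 (−0.56, 0.0546). That on A_52_P520495 lost it with the VEGF-A arrays of slide 3 alone (−0.81, adjusted p = 0.101) and without hFc 2 (−0.82, 0.0608) or hFc 3 (−0.86, 0.0531). On A_66_P115046, which lies in the band of rows, VEGF-A 2 stood at −2.08 and the other VEGF-A arrays between −0.77 and −0.22, against 0.62 to 1.23 in hFc, and the fall without VEGF-A 2 was −1.45 (adjusted p = 4.09e-05). This was the 1 Vcam1 probe below VEGF Trap in VEGF-A past the threshold (−1.36, adjusted p = 0.008), with −1.57 within slide 3 and −1.4 within slide 4 (adjusted p = 0.0587 and 0.00368). With slide as a block it missed the threshold (−1.49, adjusted p = 0.0509), where A_51_P210956 (−0.44, 0.0435) and A_66_P128314 (−0.44, 0.0272) passed. Dll4-Fc was below VEGF-A on A_66_P128314 (−0.99, adjusted p = 0.00011; −0.38 under normexp, adjusted p = 0.000952) and on A_52_P520495 (−0.80, adjusted p = 0.0262), but not on A_66_P115046 (−0.18, 95% interval −0.80 to 0.45). The call on A_52_P520495 was lost without Dll4-Fc 2, Dll4-Fc 4, VEGF-A 1, VEGF-A 2 or VEGF-A 5 (−0.79 to −0.60, adjusted p = 0.0563 to 0.0903). The fifth Vcam1 probe, A_52_P462332, had Cy3 signals of 2.61 to 12.3 and differences from hFc of 0.27, 0.03 and 0.25 in Dll4-Fc, VEGF-A and VEGF Trap, with SEs of 0.55 to 0.63. Its 95% interval for VEGF-A, −1.15 to 1.2, holds the VEGF-A falls of 3 of the other probes, so a change of that size was not detectable. The interval for Dll4-Fc, −0.97 to 1.51, lies above the Dll4-Fc falls of all the other Vcam1 probes. The Dll4-Fc fall was thus not seen on this probe, where Cy3 signals in Dll4-Fc were 2.98 to 3.91.

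**Figure D4:**
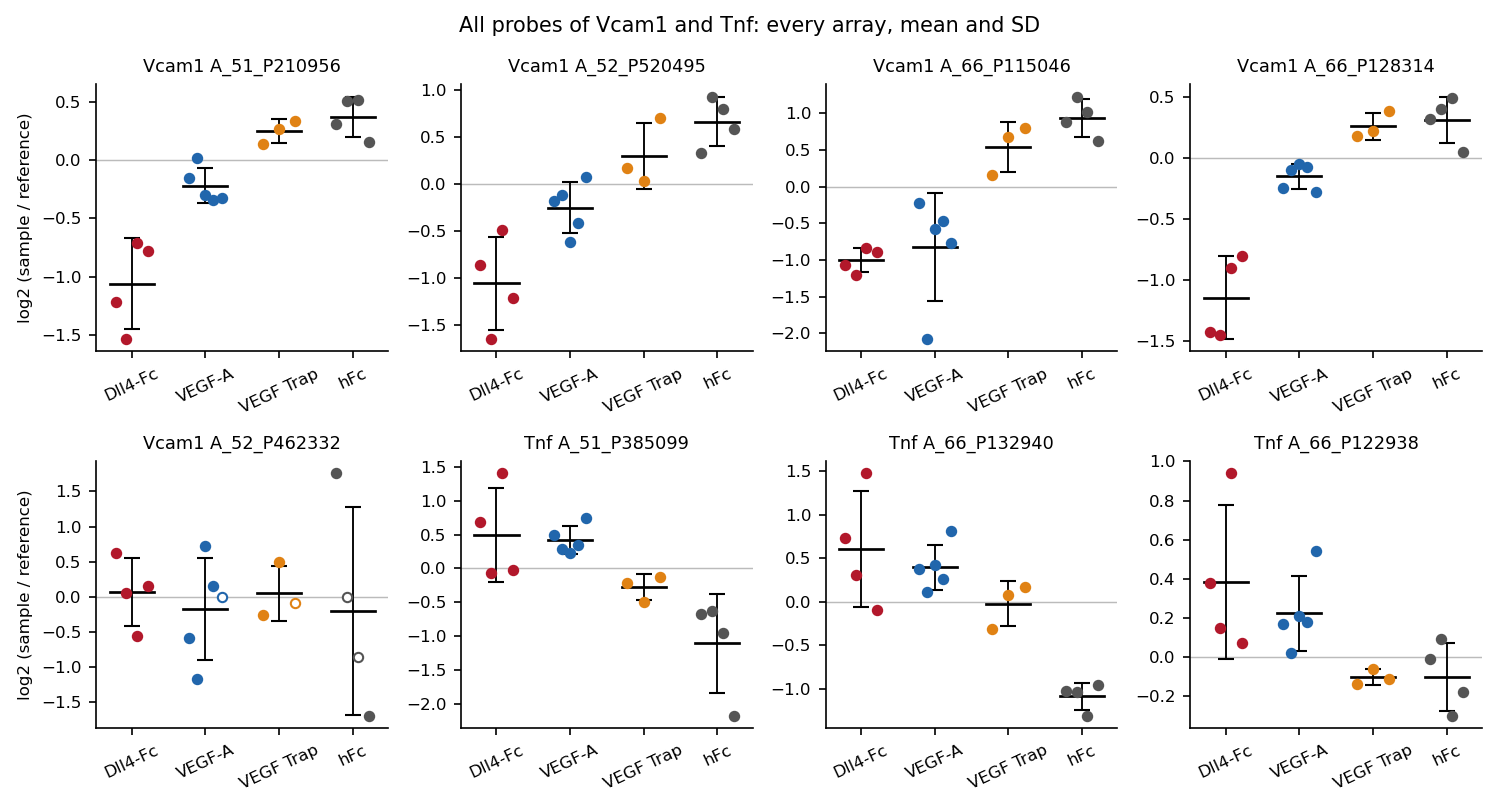
Log2 of sample over reference on each array for the 5 Vcam1 and 3 Tnf probes, with group mean and SD (hollow where Cy3 was not well above background). On 4 Vcam1 probes Dll4-Fc averaged −1 to −1.14, against 0.31 to 0.94 in hFc, and the pair of Tnf probes with the same sequence separates hFc from the other groups more than A_66_P122938 does.

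Vcam1 is expressed by more than 1 cell type of the retina, and in bulk tissue fewer cells of a type and less RNA per cell cannot be told apart. Of 7 Müller glia markers, 5 fell and 0 rose in Dll4-Fc (median −0.80), where 1.68% of all genes fell, with a summed Cy3 level relative to each array's 75th percentile of 62.4 to 91 in Dll4-Fc and 95.2 to 102 in hFc. In VEGF-A 3 fell and 2 rose, where 4.22% of all genes fell and 6.7% rose, with a summed level of 95.1 to 113. Every marker of the list was detected, and its part in the Vcam1 result was not tested. Selp, which encodes the selectin of activated platelets and endothelium, had group means of −0.05, −0.14, −0.25 and −0.19 on A_51_P211854 and of 0.10, 0.00, 0.05 and 0.10 on A_52_P57843 in Dll4-Fc, VEGF-A, VEGF Trap and hFc. The groups overlapped on both probes, and the 95% intervals of the differences from hFc ran from −0.33 to 0.38. Sele, the selectin made by activated endothelium, was not measurable here.

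Tnf, which encodes the cytokine TNF, rose in Dll4-Fc and VEGF-A on the repeated probe sequence. On A_66_P132940 the values were 0.73, 0.31, 1.48 and −0.09 in Dll4-Fc, 0.38, 0.11, 0.42, 0.26 and 0.81 in VEGF-A, −0.31, 0.08 and 0.17 in VEGF Trap, and −1.03, −1.04, −1.31 and −0.96 in hFc. All hFc arrays were below all others, and the other 3 groups overlapped each other. The rise over hFc was 3.24-fold with Dll4-Fc (log2 1.69, SE 0.26, adjusted p = 0.000782) and 2.79-fold with VEGF-A (1.48, SE 0.24, adjusted p = 0.000826). VEGF Trap gave 1.07 (SE 0.28, adjusted p = 0.0559). That value passed with a filter on all 16 arrays (adjusted p = 0.045) and with slide as a random block (1.06, adjusted p = 0.0464). The random block cannot separate slide from treatment in a comparison with hFc. The twin probe A_51_P385099 gave 1.60, 1.53 and 0.83 (adjusted p = 0.0121, 0.00662 and 0.233), and hFc 4 was low there at −2.18, against −0.95 to −0.63 in the other hFc arrays. Without hFc 4 it gave 1.25 for Dll4-Fc and 1.17 for VEGF-A (adjusted p = 0.0241 and 0.0151). Under normexp the Dll4-Fc and VEGF-A rises were 0.87 and 0.71 on A_66_P132940 and 0.73 and 0.61 on A_51_P385099, all past the threshold.

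The third Tnf probe gave smaller differences. A_66_P122938 stood at 0.07 to 0.94 in Dll4-Fc, 0.02 to 0.54 in VEGF-A, −0.14 to −0.06 in VEGF Trap and −0.30 to 0.09 in hFc, and the differences from hFc of 0.49 for Dll4-Fc and 0.32 for VEGF-A did not pass (adjusted p = 0.162 and 0.245), though the Dll4-Fc difference passed from Cy3 alone (0.74, adjusted p = 0.0172). Both twins lie in the band of rows marked on the hFc slide and A_66_P122938 does not, and its part in the result was not tested. No Tnf probe passed between Dll4-Fc and VEGF-A. Between VEGF-A and VEGF Trap, A_51_P385099 gave 0.70 (adjusted p = 0.203), and passed with slide as a fixed block (0.67, adjusted p = 0.0291), while the other Tnf probes did not pass.

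Il6, which encodes the cytokine IL-6, was higher in VEGF-A than in each of the other groups. The first 30 bases of its probe, the only one for the gene (chromosome 5), are shown 5′ to 3′.
A_51_P217218: atattctgttacctagccagatggtttctt
The values on A_51_P217218 were −1.30, −0.86, −0.20 and −1.28 in Dll4-Fc, 0.94, 1.41, 0.70, 0.97 and 1.37 in VEGF-A, −1.74, −1.07 and −1.71 in VEGF Trap, and −0.83, −0.42, −0.41 and −0.99 in hFc. All VEGF-A arrays were above all others. The rise with VEGF-A was 3.35-fold over hFc (log2 1.74, SE 0.24, adjusted p = 0.000123) and 6-fold over VEGF Trap (2.58, SE 0.26, adjusted p = 3.74e-06), and Dll4-Fc was below VEGF-A by −1.99 (SE 0.24, adjusted p = 2.38e-05). Dll4-Fc minus hFc was −0.25 (95% interval −0.78 to 0.29), and VEGF Trap minus hFc was −0.84 (adjusted p = 0.108). The probe was well above background on 2 of 4 Dll4-Fc, 5 of 5 VEGF-A, 1 of 3 VEGF Trap and 2 of 4 hFc arrays, so levels outside VEGF-A are at the limit of measurement. Under normexp the rise over hFc was 0.40 (adjusted p = 0.00047), and from Cy3 alone it was 2.35. The difference from VEGF Trap was 2.58 within slide 3 and 2.72 within slide 4 (adjusted p = 0.00137 and 0.0028), and 0.51 under normexp.

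Il1b, which encodes IL-1β, gave no call. Its probe stood at −0.77 to 1.19 in Dll4-Fc, −0.99 to 0.56 in VEGF-A, −0.60 to 0.72 in VEGF Trap and −0.98 to 0 in hFc, all groups overlapping. It was well above background on all 4 Dll4-Fc, 3 of 5 VEGF-A, 3 of 3 VEGF Trap and 0 of 4 hFc arrays. The log ratios gave 0.58 for Dll4-Fc minus hFc (limma adjusted p = 0.683). In the Cy3 channel after normexp, which compresses dim probes, the Dll4-Fc mean was at least 1.35-fold above hFc. Here the hFc signal was replaced by the lowest signal well above background on its array if that was higher. That mean includes Dll4-Fc 1, with 67.7 in Cy3 against 3.07 to 7.64 on the other Dll4-Fc arrays. Dll4-Fc 1 was as bright in the Cy5 reference (59.7), against at most 9.38 in either channel elsewhere, and its log2 ratio was 0.18. For Ptgs2, VEGF-A minus hFc on A_52_P224760 was 0.26 (95% interval 0.02 to 0.51, adjusted p = 0.192). In the Cy3 channel after normexp, the VEGF-A mean was 1.07-fold above hFc treated in the same way. Only 3 of 5 VEGF-A arrays were well above background, so this value is not a strict lower bound. With only VEGF-A 1 and 2, the arrays on slide 3, the difference passed (0.31, adjusted p = 0.0162). The hFc and Dll4-Fc log ratios on this probe were all exactly 0 (SD 0), so these groups added no spread to that test.

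Lcn2 and Saa3 rose in Dll4-Fc by more than any other member. Lcn2 encodes the iron-carrier binding protein lipocalin-2, which reactive astrocytes and neutrophils make. On A_51_P510152 it stood at 1.4, −0.79, 2.00 and 1.85 in Dll4-Fc, −1.34, −1.30, −0.86, −1.06 and −1.36 in VEGF-A, −0.95, −0.89 and −1.28 in VEGF Trap, and −1.39, −1.06, −0.99 and −1.31 in hFc. In Dll4-Fc 3 arrays were far above every other array, and Dll4-Fc 2 lay just above the highest value of the other groups. The rise over hFc was 4.93-fold (log2 2.3, SE 0.44, adjusted p = 0.0052), and 2.94 without Dll4-Fc 2 (adjusted p = 2.85e-07). The overlapping probe A_51_P510156 gave 2.41 (SE 0.49, adjusted p = 0.00899), with Dll4-Fc 2 at −1.22 and the other 3 arrays at 0.98 to 1.81, and 3.08 without Dll4-Fc 2. Under normexp it gave 1.43. Dll4-Fc was above VEGF-A by 2.3 and 1.96 (adjusted p = 0.00129 and 0.011; without Dll4-Fc 2 by 2.93 and 2.63), while VEGF-A minus hFc was 0.00 and 0.45, with 95% intervals from −0.89 to 0.89 and from −0.55 to 1.45.

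Saa3, an acute phase apolipoprotein that macrophages make locally, had the widest difference from hFc among the tested members. It stood at 2.03, 0.21, 1.89 and 1.90 in Dll4-Fc, −2.45, −1.64, −2.45, −1.63 and −1.95 in VEGF-A, −0.32, −0.69 and 0.24 in VEGF Trap, and −2.90, −3.02, −1.97 and −2.11 in hFc. VEGF-A and hFc overlapped, VEGF Trap lay above both, and Dll4-Fc reached higher, with Dll4-Fc 2 inside the VEGF Trap range. The rise over hFc was 16.1-fold with Dll4-Fc (log2 4.01, SE 0.39, adjusted p = 1.29e-05), with 2 of 4 hFc arrays well above background. Dll4-Fc was above VEGF-A by 3.53 (SE 0.37, adjusted p = 6.19e-06), and by 1.58 under normexp. VEGF Trap was above hFc by 2.24 (SE 0.42, adjusted p = 0.0127) and VEGF-A below VEGF Trap by −1.76 (SE 0.40, adjusted p = 0.0069). Under normexp the Dll4-Fc rise was 1.42 (adjusted p = 0.000695), while VEGF Trap minus hFc was 0.32 (adjusted p = 0.424) and VEGF-A minus VEGF Trap −0.49 (adjusted p = 0.162). Within slides 3 and 4, VEGF-A minus VEGF Trap was −1.54 and −2.25 (adjusted p = 0.149 and 0.0726). The VEGF Trap call was also lost without VEGF Trap 1 (2.27, adjusted p = 0.0591) or VEGF Trap 3 (1.99, adjusted p = 0.0608). The probes named Saa1 and Saa2, looked up after their values were seen, gave −0.01 and 0.19 for Dll4-Fc minus hFc (adjusted p = 0.981 and 0.465).

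Of the microglia and macrophage, neutrophil and lymphocyte markers, only those of microglia and macrophages passed the test against hFc, and only in Dll4-Fc. All 9 microglia and macrophage markers with hFc values rose in Dll4-Fc (median 0.82), where 3.5% of all genes rose, and 0 of 9 passed in VEGF-A or VEGF Trap. Their summed level was 27.9 to 33.9 in Dll4-Fc and 8.08 to 14.5 in hFc. C1qb had no hFc value, so the hFc sum lacks it and these ranges do not cover the same markers. Of 9 neutrophil markers 0 passed in Dll4-Fc, VEGF-A or VEGF Trap, with a median difference of 0.19 in Dll4-Fc, from −0.10 for Mpo to 1.16 for S100a9 (adjusted p = 0.772 and 0.239). Of 6 lymphocyte markers 0 passed against hFc. Between VEGF-A and VEGF Trap, neutrophil S100a9 rose (1.72, limma adjusted p = 0.0172) and 3 of 10 microglia and macrophage markers fell, where 11.9% of all genes rose and 8.76% fell. Between Dll4-Fc and VEGF-A, 10 of 10 microglia and macrophage markers and lymphocyte Cd3g rose (Cd3g 0.72, adjusted p = 0.0471), where 6.96% of all genes rose. The summed neutrophil level was 0.345, 0.112, 0.239 and 0.306 in Dll4-Fc and 0.0886 to 0.174 in hFc. Within Dll4-Fc it was lowest in Dll4-Fc 2, the array that was also lowest for Lcn2 and Saa3. That array was likewise the lowest of Dll4-Fc in summed astrocyte level (2.54) and in mean log2 of the microglia and macrophage markers (0.44). In summed microglia and macrophage level it was not the lowest, with 29.9 against 27.9 in Dll4-Fc 4. Endothelial markers rose in VEGF-A for 7 of 10 and fell for 1, where 6.7% of all genes rose and 4.22% fell, with a summed level of 43.3 to 49.8 in VEGF-A, 34.2 to 42 in Dll4-Fc, 23.3 to 24.6 in VEGF Trap and 29.6 to 33.8 in hFc. In Dll4-Fc 3 of 10 endothelial markers rose, Tie1 (0.32), Egfl7 (0.52) and Icam2 (0.40), and 0 fell, where 3.5% of all genes rose and 1.68% fell. In VEGF Trap 8 of 10 fell, where 2.21% of all genes fell. Of 4 astrocyte markers 1 rose, Gfap, by 1.13 in Dll4-Fc (adjusted p = 0.000474) and by 2.36 in VEGF-A (adjusted p = 4.45e-08). In these groups 3.5% and 6.7% of all genes rose, and neither Lcn2 probe passed in VEGF-A. The summed astrocyte level was 2.54 to 4.06 in Dll4-Fc, 3.81 to 4.57 in VEGF-A, 2.43 to 2.6 in VEGF Trap and 2.3 to 2.57 in hFc. No marker of these 5 lists was below background on every array, and their part in the results on Icam1, Tnf, Il6, Lcn2 and Saa3 was not tested.

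Between VEGF-A and VEGF Trap, the comparison that shares slides, 2 of 18 member probes rose (Icam1 and Il6) and 2 fell (Vcam1 and Saa3), where 16.9% of all probes passed, 9.76% up and 7.11% down. The share of members was close to that of all probes. The groups did not overlap for 9 of 18 (24% of all probes). Between Dll4-Fc and VEGF-A, 3 rose (both of Lcn2 and that of Saa3) and 4 fell (3 of Vcam1 and that of Il6), where 12.1% of all probes passed, 5.42% up and 6.71% down, and the groups did not overlap for 5 of 18 (13.5% of all probes).

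Genes that work beside the members were followed in 5 lists, with 1 probe for each gene. In the list of leukocyte and endothelial adhesion, 9 of 20 measured genes rose in Dll4-Fc and 9 in VEGF-A, with medians of 0.32 and 0.24, where 5.17% and 10.9% of all genes passed and 3.5% and 6.7% rose, and the median of all genes was −0.018 and −0.048. In Dll4-Fc they included the mucosal addressin Madcam1 (1.26), the leukocyte integrin subunit Itgb2 (1.15), the junction protein F11r (0.61) and von Willebrand factor Vwf (0.77). In VEGF-A the firmest were Cd34 (2.07), Icam2 (1.64), Esam (0.99) and Pecam1 (1.31), all expressed by endothelium; Icam2 and Pecam1 are also in the endothelial marker list. In VEGF Trap 5 of 20 fell, where 3.21% of all genes passed and 2.21% fell, among them Vwf (−0.96), Cd34 (−0.88), Icam2 (−0.88) and Pecam1 (−0.65).

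Among receptors and regulators of IL-1, TNF and IL-6, 3 of 16 rose in Dll4-Fc, namely the IL-1β-processing protease Casp1 (1.36), the TNF receptor Tnfrsf1b (0.84) and lymphotoxin β, Ltb (0.73). In VEGF-A 5 rose, including the receptors Il1r1 (1.24), Osmr (1.48) and Tnfrsf1a (0.89) and the cytokine Il1a (1.62). Of 14 NF-kB feedback and target genes, 2 rose in Dll4-Fc, Ccl2 (3.46) and Tnfaip2 (0.43), and 7 in VEGF-A, among them Tnfaip2 (2.95), Ccl2 (4.03), Tnfaip6 (0.86) and Relb (0.48). Ccl2 encodes the chief monocyte chemokine. In both lists 0 genes fell in Dll4-Fc or VEGF-A. Of all genes, 3.5% rose and 1.68% fell in Dll4-Fc, and 6.7% rose and 4.22% fell in VEGF-A.

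Of 17 STAT3 and acute phase genes, 8 rose and 0 fell in Dll4-Fc (median 0.55), where 3.5% of all genes rose and 1.68% fell, with complement C3 (1.94), haptoglobin Hp (2.78), Lrg1 (0.86) and the orosomucoid Orm2 (0.93) the firmest. In VEGF-A 4 rose, Timp1 (2.38), Cebpd (1.76), Stat3 (0.96) and Cebpb (0.62), and C3 fell (−0.81), where 6.7% of all genes rose and 4.22% fell. Dll4-Fc was above VEGF-A for 6 of the 17, such as C3 (2.75) and Hp (3.07), and below it for 4, such as Timp1 (−1.64) and Cebpd (−1.20). Of all genes, 6.96% were above and 7.85% below in that comparison. Of 14 prostaglandin genes, 1 rose in Dll4-Fc, the thromboxane synthase Tbxas1 (1.04), and in VEGF-A the prostacyclin synthase Ptgis (1.64) and Ptges3 (0.29) rose and the receptor Ptger4 (−0.73) fell, counts near the 3.5% of all genes that rose in Dll4-Fc and the 6.7% that rose and 4.22% that fell in VEGF-A. In VEGF Trap Il1a rose (0.69), Tnfaip6 fell (−0.80), and 0 genes of the acute phase and prostaglandin lists passed.

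Between VEGF-A and VEGF Trap, 9 of 20 adhesion genes rose and 1 fell, 5 of 16 receptors and regulators rose, and 6 of 14 NF-kB genes rose and 1 fell, where 20.7% of all genes passed, 11.9% up and 8.76% down. The firmest were Cd34 (2.95), Il1r1 (1.23) and Tnfaip2 (3.05). Between Dll4-Fc and VEGF-A, 6 adhesion genes rose and 8 fell, 5 receptors and regulators rose and 5 fell, and 0 NF-kB genes rose and 4 fell, where 14.8% of all genes passed, 6.96% up and 7.85% down. Among adhesion genes, endothelial Cd34 (−1.58), Esam (−0.85), Pecam1 (−1.26) and Icam2 (−1.24) were lower in Dll4-Fc, while Vwf, also endothelial, was higher (0.37). Of the 10 endothelial markers, 7 were lower in Dll4-Fc than in VEGF-A and 1, Cldn5, was higher (0.57).

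**Figure D5:**
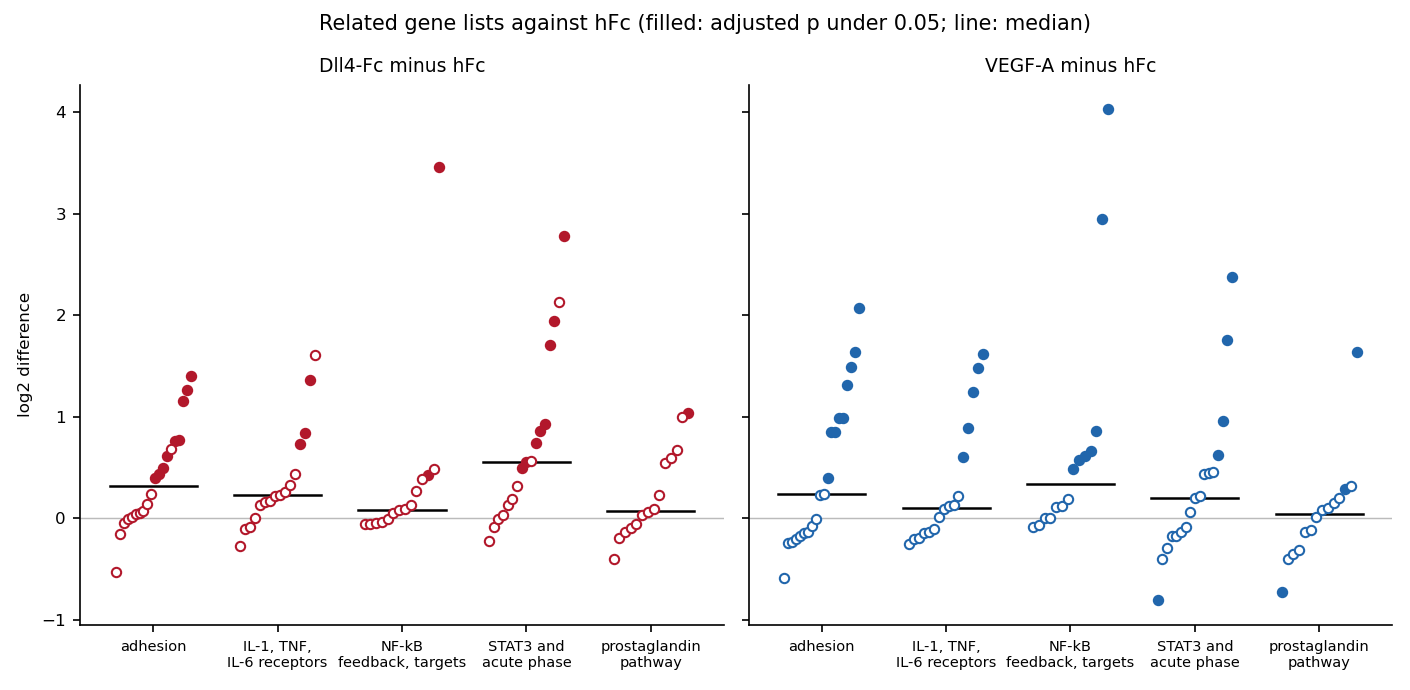
Log2 difference from hFc of each measured gene in 5 lists of related genes, in Dll4-Fc and VEGF-A, filled where the adjusted p was under 0.05, with the list's median as a line. Ccl2 is the highest point in both panels, at 3.46 and 4.03, and the acute phase list holds 8 filled points in Dll4-Fc and 5 in VEGF-A.

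For each member probe that differed between the groups, the genes with the most similar 4 group means were found among 4187 genes that did so too, by Euclidean distance after centring. For Icam1 these were Inpp5d, Emilin2 and Kcnk6 (distance 0.0941 to 0.178). For Il6 they were Col4a1, Des and Kcnmb1 (0.21 to 0.24). For Lcn2 they were Napsa, Fcgr1 and Sp110 on A_51_P510152 (0.0656 to 0.147) and Pilrb1, Irf7 and Ly6a on A_51_P510156. Ccl5, Oas1a and Ifi27l2a came nearest to Saa3, but at 0.455 to 1.04. For Vcam1 they were Inhba, Cyp2d12 and Dapp1 on A_51_P210956 (0.119 to 0.169), and on A_52_P520495 Inhba, Folh1 and Rassf10 (0.176 to 0.301). They were Elf5, Lrrc66 and Krt19 on A_66_P115046 (0.313 to 0.439) and Efhd1, Cyp2d12 and Inhba on A_66_P128314 (0.115 to 0.168). Tesc was the nearest for both Tnf twins (0.369 and 0.339), followed by C5ar1 and Krt23. A distance over 4 means describes likeness in these arrays alone.

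Promoter sequence was searched for all members in the table, whether or not they passed a test. Of the 10 genes, 9 have an entry in the RefSeq table (GRCm38.p6), all but Vcam1. The 250 bases before each start were searched on both strands for the AP-1 motif TGANTCA, the STAT motif TTCNNNGAA, the C/EBP motif TTGCNNAA and the NF-kB (κB) consensus. C/EBP matched in Ptgs2, Lcn2, Il6 and Saa3, 4 of 9, and in 9.56% of all 32851 windows. AP-1 matched in Sele, Selp and Il6 (6.75% of all windows), STAT in Sele and Icam1 (7.02%), and κB in Il6 (7.25%). No match overlapped another. Lcn2 and Saa3, which rose most with Dll4-Fc, and Il6, which rose with VEGF-A, are shown 5′ to 3′ with all matches in capitals. In Il6 these are, in order, AP-1, C/EBP and κB, and in Lcn2 and Saa3 C/EBP.
Lcn2, chr2:32387740-32387989, minus strand: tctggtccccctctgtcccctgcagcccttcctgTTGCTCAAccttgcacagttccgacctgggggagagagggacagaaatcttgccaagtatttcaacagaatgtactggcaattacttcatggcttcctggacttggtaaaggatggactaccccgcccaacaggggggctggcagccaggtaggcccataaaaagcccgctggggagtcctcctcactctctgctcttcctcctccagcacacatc
Saa3, chr7:46715677-46715926, minus strand: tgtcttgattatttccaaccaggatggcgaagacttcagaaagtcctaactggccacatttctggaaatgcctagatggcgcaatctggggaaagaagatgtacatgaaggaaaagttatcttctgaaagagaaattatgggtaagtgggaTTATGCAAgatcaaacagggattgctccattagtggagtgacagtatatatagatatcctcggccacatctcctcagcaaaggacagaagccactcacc
Il6, chr5:30012864-30013113, plus strand: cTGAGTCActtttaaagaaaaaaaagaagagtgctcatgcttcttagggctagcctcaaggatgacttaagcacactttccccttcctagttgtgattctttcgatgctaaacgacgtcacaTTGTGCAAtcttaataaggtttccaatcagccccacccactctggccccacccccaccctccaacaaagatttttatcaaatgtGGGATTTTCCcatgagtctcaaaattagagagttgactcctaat
A match describes letters in the window and does not show that a factor was bound in these retinas.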

How the data were processed

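Mouse retina RNA of 16 samples in 4 groups was measured on 2-colour Agilent arrays, with samples in Cy3 and a common reference in Cy5 and no dye swap. Per the file headers, intensity values of both channels came from Feature Extraction 9.5.1.1, and LogRatio is a log10 ratio of the background-subtracted, dye-normalized Cy5 signal to that of Cy3. The deposited flags for outlier spots, for spots well above background and for surrogate signals came from the same software, per the file headers. A second deposited table, the series matrix, has natural log values of sample over reference. It matched the LogRatio at a correlation of at least 0.999 on every array. It was used as an alternative.

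LogRatio was turned to log2 of sample over reference, outlier and control spots were left out, and spots of a probe were averaged. Of 43426 probes, 39787 had Cy3 well above background on at least 3 arrays. They were tested with limma 3.58.1 under R 4.3.3 in 1 fit of 4 groups, 2-sided, with Benjamini-Hochberg adjustment over all probes of a comparison at 0.05. Residual degrees of freedom were 12 and prior ones 2.41. The number of arrays limits the precision. Probes with no hFc value left 38886 for comparisons with hFc. Near background means that no array of a group was well above background in Cy3. An at-least fold used the Cy3 channel after normexp with an offset of 50 and loess, with mean intensities then brought to a common distribution over arrays. It is not the Cy3 alone alternative, and the offset compresses folds of dim probes. On each array the dim side took the higher of its own signal and the lowest signal well above background. The bright side took all its arrays, so the value is no strict bound where some were not well above background.

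In lists, a gene with several probes is given by the probe of highest mean Cy3, and summed marker levels are Cy3 over the array's 75th percentile. A sum lacks a marker where its spot was marked as an outlier, and such marks were most common on hFc arrays. All member probes are named. Of each list, the called genes with the smallest p are named, up to 4 in a comparison, and the 3 genes nearest to each member probe that passed the F test. Vwf is named besides these between Dll4-Fc and VEGF-A. Members and lists were chosen with earlier results of these data known. The fit was tested on simulated data. Alternatives were normexp with loess, Cy3 alone, the series matrix, other filters, slide as a block, left-out arrays, and hFc 1 and hFc 2 averaged, since their titles share a code. The titles of VEGF-A 4 and VEGF Trap 3 share a code too. What such a code means is not stated, and these arrays were not treated as a pair. No source used here names a genome build for the probes, so no probe positions are printed. RefSeq gave promoter sequences (GRCm38.p6).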

Additional observations from a re-analysis of the deposited data

Results flagged for a closer look

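Among 44 sets of a tested member probe and a group of 4 or 5 arrays, 1 held an array that stood far from the rest. Chance gives about 1 in 20 sets, so a count of 1 in 44 is no more than chance gives. The array was Dll4-Fc 2 for Saa3, with a log2 of sample over reference of 0.21, against 1.89 to 2.03 in the other 3 Dll4-Fc arrays. The gap to the nearest array made up 0.922 of the group's range. Without Dll4-Fc 2 the Saa3 difference from hFc was 4.44 (limma adjusted p = 9.78e-07).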

How the results depend on the processing

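The 29 member results past the threshold were recomputed under 510 combinations of result and setting: 484 kept direction and call, 26 kept the direction and lost the call, and 0 reversed. In all, 21 of the 29 kept their call in every setting run. The 26 losses concerned Icam1, Vcam1 and Saa3 between VEGF-A and VEGF Trap, Vcam1 in VEGF-A and between Dll4-Fc and VEGF-A, Tnf A_51_P385099 with the VEGF-A arrays of slide 3 alone (1.5, adjusted p = 0.0587), and Saa3 in VEGF Trap.

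Over all probes, VEGF Trap vs hFc called 1046, against 2503 under normexp and loess, 388 with Cy3 alone, 539 with hFc 1 and hFc 2 averaged, and 259 to 933 with 1 array left out (651 without hFc 1, 426 without hFc 2, 442 without hFc 3, 607 without hFc 4, 259 without VEGF Trap 1 and 469 without VEGF Trap 3). VEGF-A vs VEGF Trap called 6714, against 4183 within slide 3, 3311 within slide 4, and 4173 to 6610 with 1 array left out (4173 without VEGF Trap 1 and 4426 without VEGF Trap 3). Rises made up 57.9% of these calls, and 71.1% within slide 4. For VEGF-A vs hFc, 63.2% of 3494 calls were rises, against 46.9% of 4549 with the VEGF-A arrays of slide 3 alone and 71.8% of 2811 with those of slide 4 alone. Which direction held more calls thus changed with the VEGF-A arrays used, and slide cannot be told apart from the arrays on it. With 1 array left out, VEGF-A vs hFc called 2654 to 3593, Dll4-Fc vs hFc 1246 to 1479, Dll4-Fc vs VEGF-A 3851 to 4965 and the test over the 4 groups 5355 to 7732. No scaling moved the median of all probes by over 0.1. The cause of these shifts was not tested. No paired analysis was possible because replicate numbers follow accession order and pair no samples. Signal over background limited Sele, Ptgs2, Il1b and Il6 outside VEGF-A, and normexp brought the Dll4-Fc rise of Saa3 to 1.42 from 4.01 and the VEGF-A rise of Il6 to 0.4 from 1.74.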
